A study of Mus musculus with 17 samples.

Results

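The results concern 10 genes of TNF and interleukin-1 signalling, with interleukin-6 and its receptor beside them: the ligand genes Tnf, Il1a, Il1b, Il18 and Il6, the antagonist gene Il1rn, and the receptor genes Tnfrsf1a, Tnfrsf1b, Il1r1 and Il6ra. They were picked by gene symbol from a table of 22462 genes, and each of the 10 symbols had a row. Polyadenylated RNA had been sequenced from mice whose strain the labels spell FVN/Swiss. The 7 cell types purified from cerebral cortex, with 2 libraries each, were microglia, endothelial cells, astrocytes, neurons and 3 stages of the oligodendrocyte lineage, namely precursor cells (called precursors below), newly formed and myelinating oligodendrocytes. Whole cortex, with 3 libraries, brought the total to 17. The labels carry no treatment, genotype, age, sort marker or animal number. Nothing in them says that libraries of a group came from separate animals, so the p-values below measure only the spread between libraries, which may be technical. The question put to the data was which cells hold the message of each ligand and which cells hold that of its receptor.

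TNF is made as a membrane protein and cut free by the protease ADAM17. It binds a widely used receptor with a death domain (Tnfrsf1a) and a second receptor without one (Tnfrsf1b). Interleukin-1 alpha and beta bind Il1r1, which signals together with the accessory chain Il1rap, while the antagonist encoded by Il1rn occupies the same receptor without signalling. Interleukin-1 beta and interleukin-18 are cut by caspase-1 in the inflammasome before they act, so their message need not mean active cytokine. Interleukin-6 binds Il6ra and signals through the shared chain Il6st (gp130). The TNF, interleukin-1 and interleukin-18 receptors lead to the transcription factor NF-kappaB, and the interleukin-6 receptor to STAT3. In the brain, microglia are a known source of TNF and interleukin-1, and the receptor Il1r1 on vessel walls is known for its part in fever and sickness behaviour.

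The promoters of the main ligand genes are shown because 3 of these ligands had nearly the same distribution over cell types while the fourth did not. They come from RefSeq in the mouse build GRCm38.p6, run 5′ to 3′ on the gene's strand, and end 50 bases past the transcript start. The windows are Tnf on chr17:35201958-35202257 (minus strand), Il1a on chr2:129309923-129310222 (minus), Il1b on chr2:129371090-129371389 (minus) and Il18 on chr9:50554450-50554749 (plus). Capitals mark matches to TATAAA or to the AP-1 motif TGANTCA on either strand.
Tnf: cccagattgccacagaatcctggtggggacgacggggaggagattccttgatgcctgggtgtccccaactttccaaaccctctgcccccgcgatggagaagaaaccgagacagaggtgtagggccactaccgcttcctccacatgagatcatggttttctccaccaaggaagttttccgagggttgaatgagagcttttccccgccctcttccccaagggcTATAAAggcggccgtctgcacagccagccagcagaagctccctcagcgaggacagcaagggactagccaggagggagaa
Il1a: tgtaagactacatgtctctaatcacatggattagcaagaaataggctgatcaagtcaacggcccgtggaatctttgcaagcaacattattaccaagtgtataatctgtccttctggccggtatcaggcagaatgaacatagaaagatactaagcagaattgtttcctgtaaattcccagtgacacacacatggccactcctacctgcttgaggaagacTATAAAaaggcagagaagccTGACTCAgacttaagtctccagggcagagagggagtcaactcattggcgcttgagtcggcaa
Il1b: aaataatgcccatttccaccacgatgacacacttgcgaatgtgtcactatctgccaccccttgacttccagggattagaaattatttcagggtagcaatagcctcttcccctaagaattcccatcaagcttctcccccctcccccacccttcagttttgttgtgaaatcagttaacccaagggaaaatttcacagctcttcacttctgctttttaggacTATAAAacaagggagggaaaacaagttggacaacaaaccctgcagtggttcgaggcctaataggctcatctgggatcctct
Il18: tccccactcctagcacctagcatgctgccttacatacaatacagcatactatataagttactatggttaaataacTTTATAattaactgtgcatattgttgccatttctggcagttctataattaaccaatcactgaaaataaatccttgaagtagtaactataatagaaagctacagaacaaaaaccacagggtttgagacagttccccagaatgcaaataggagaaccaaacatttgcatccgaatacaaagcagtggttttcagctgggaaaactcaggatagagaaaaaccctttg
The letters TATAAA began at -29 in Tnf, at -32 in Il1a and at -31 in Il1b, counted from the transcript start. In Il18 the motif lay at -175 on the opposite strand (TTTATA). Of 32851 mouse promoter windows of this length, 13.6% held this motif. Il1a also held an AP-1 match at -12, a motif found in 7.81% of windows. Over the 10 genes, which have 13 windows, TATAAA was found in 5 genes, the AP-1 motif in 3, the NF-kappaB motif in 2 (4.51% of windows), the C/EBP motif TTGCNNAA in 2 (10.8%) and the PU.1 motif GAGGAAGT in 0 (3.20%). Each motif was searched on both strands, and no matches overlapped. The Il6 window held an NF-kappaB match (GGGATTTTCC) at -44, a C/EBP match at -128 and an AP-1 match at -249. These matches describe letters in the windows, and no factor binding was measured.

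Levels are FPKM, read density per transcript length and library size, as the authors deposited them, with a floor of 0.1 FPKM below which nothing is resolved. Marker genes followed the labels in part: 8 of 8 astrocyte, 7 of 8 neuron, 5 of 6 precursor, 3 of 6 newly formed, 4 of 6 myelinating, 10 of 10 microglia and 8 of 8 endothelial markers were highest in their own type by the rule given below. Fibroblast markers, among them Pdgfra, which precursors also express, were highest in precursors for 7 of 7 genes and summed to 717 and 728 FPKM there, against at most 126 FPKM in the libraries of the other groups. The 2 precursor libraries held microglia markers at a median of 6.02% and 3.08% of the microglia level, against 0.0238% to 0.874% in the other non-microglial types. Neutrophil markers summed to 115.5 to 140.0 FPKM in microglia libraries and to at most 15.3 FPKM in the other libraries. Markers of perivascular macrophages and monocytes summed to 148 to 231 FPKM in microglia and 71.6 to 102 FPKM in endothelial cells. In endothelial cells only 1 of the 8 tested markers, Ly6c2, was higher than the mean of the other types. There 2 were lower, and 4 of the 9 listed were at the floor in all libraries. The 4 erythroid markers summed to 1189 to 16984 FPKM in precursors and 6875 to 9387 FPKM in endothelial cells. They summed to 34.7 to 54.2 FPKM in astrocytes and 380 to 3002 FPKM in neurons. The sum of 10 immediate-early genes, which cells switch on within minutes of a stimulus, was 12869 and 8702 FPKM in microglia, 7057 and 8431 in astrocytes, 4909 and 4520 in endothelial cells, and 1885 to 1912 in whole cortex. The part of these other cells and of immediate-early induction in the levels below was not tested.

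Microglia held most of the message of these genes. A gene was called highest in a purified type when limma, on log2(FPKM + 1), gave an adjusted p under 0.05 against each of the other 6 types and the lead over the next type was 1 or more on the log2 scale. Of the 10 genes, 9 passed the filter of 1 FPKM in at least 2 libraries, and Il6 did not. Of these, 7 were called highest in microglia (Tnf, Il1a, Il1b, Il1rn, Tnfrsf1a, Tnfrsf1b, Il6ra), where 7.03% of 14011 tested genes were. Il1rn reached 1 FPKM in the 2 microglia libraries alone, so it could enter the test only through the type where it was high, and its call adds nothing to that count. Endothelial cells were highest for 1 gene, Il1r1 (6.29% of tested genes), astrocytes for 1, Il18 (3.66%), and neurons (5.7%), precursors (1.49%), newly formed (0.457%) and myelinating oligodendrocytes (0.699%) for 0. A call in some type was made for 25.3% of tested genes. Against the mean of the other 6 types, by an adjusted p under 0.05 and a log2 difference of 1 or more either way, microglia were higher for 7 of the 9 genes (15.2% of all tested genes) and lower for 0 (28.1%), and endothelial cells were higher for 3 (18.5%) and lower for 2 (18%). Precursors were higher for 3 (16.3%) and lower for 0 (2.3%), and astrocytes were higher for 1 (17.5%) and lower for 4 (13.6%). Neurons were higher for 0 (18.9%) and lower for 5 (10.3%), newly formed oligodendrocytes higher for 0 (9.06%) and lower for 4 (9.5%), and myelinating oligodendrocytes higher for 0 (6.07%) and lower for 5 (31%). The mean behind these lower calls includes microglia. In these bulk libraries fewer cells of a type and less RNA per cell cannot be told apart.

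**Figure D1:**
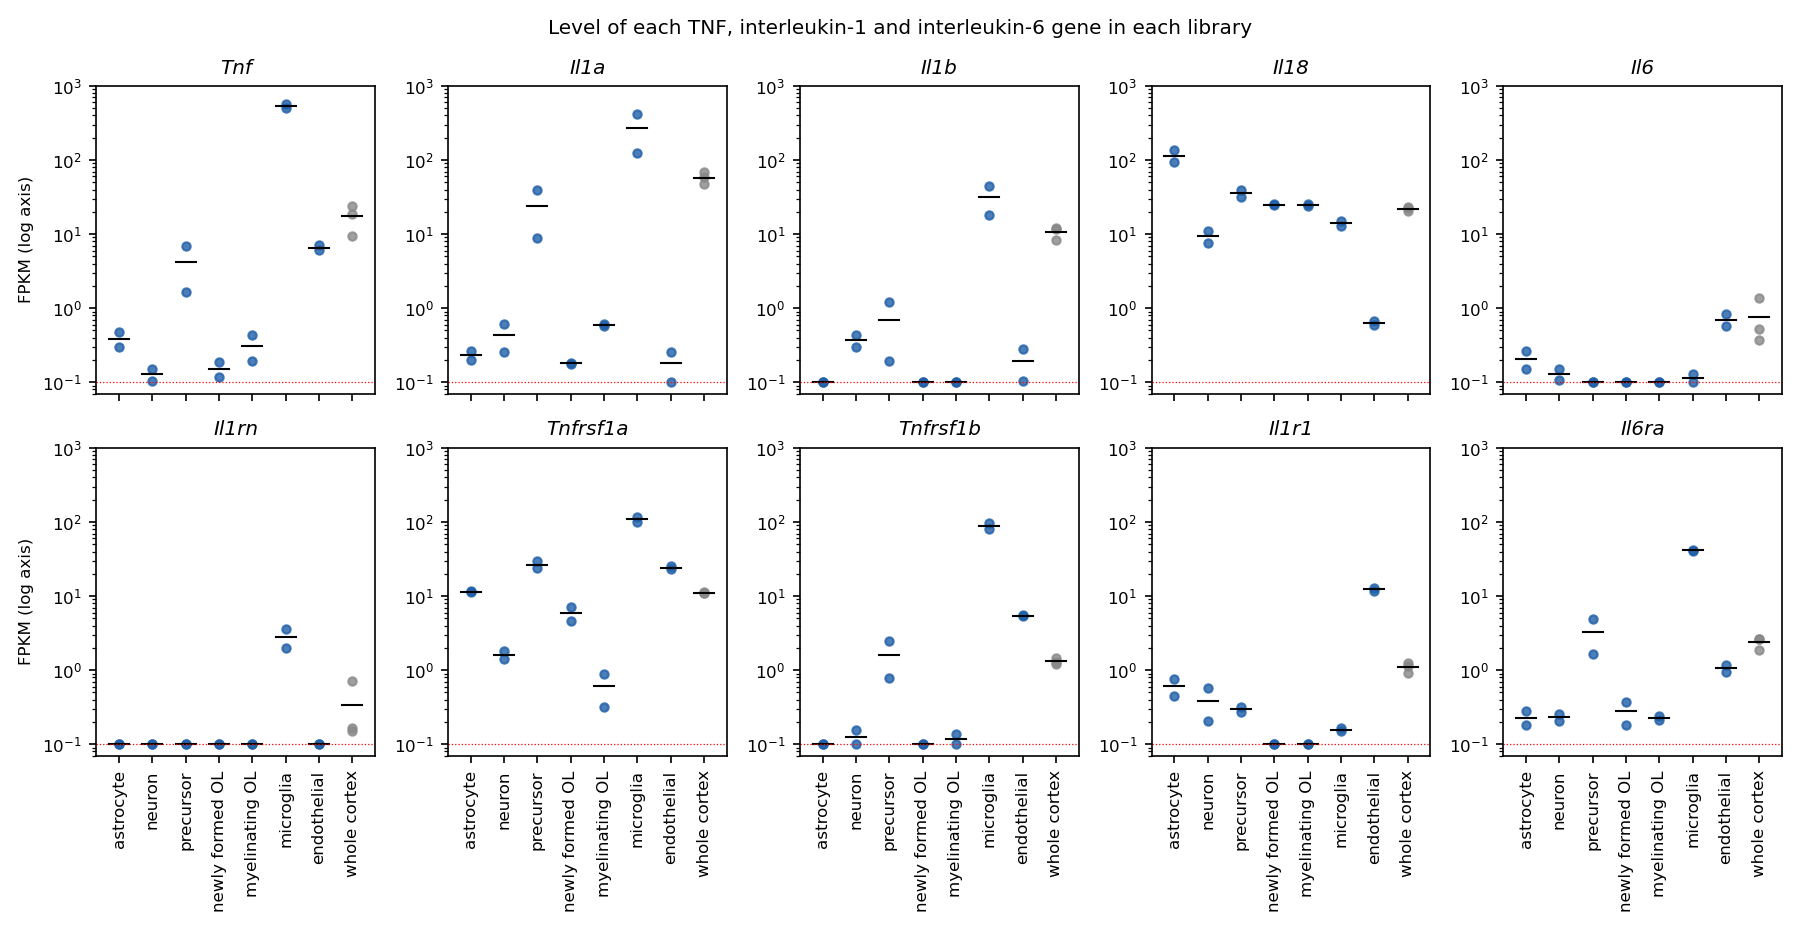
FPKM on a log axis in each library (points) with the group mean (bars) for the 10 genes, with 2 libraries per purified type (blue) and 3 of whole cortex (grey); the dotted line is the floor of 0.1 FPKM. Microglia stand above the other groups for 7 genes, endothelial cells for Il1r1 and astrocytes for Il18, while Il6 stays under 1.4 FPKM in each library.

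Tnf, the ligand of both TNF receptors, was found chiefly in microglia among the purified types. It had 498 and 565 FPKM in microglia, against 6.10 and 7.02 in endothelial cells, 6.88 and 1.64 in precursors, 0.432 and 0.194 in myelinating oligodendrocytes, 0.477 and 0.296 in astrocytes, 0.118 and 0.188 in newly formed oligodendrocytes, and 0.153 and 0.102 in neurons. Microglia did not overlap any other group, and they exceeded endothelial cells, the next type, by a log2 difference of 6.14 ± 0.42 (SE, limma adjusted p = 1.81e-08). The low levels had an order of their own. Endothelial cells and precursors overlapped (log2 difference 0.73, limma adjusted p = 0.144), and precursors lay above astrocytes by 1.72 (limma adjusted p = 0.0032). Without precursor replicate 1, endothelial cells lay above precursors by 1.52 (limma adjusted p = 0.00283). Endothelial Tnf came to 1.15% and 1.32% of the microglia mean, while the microglia markers there had medians of 0.0353% and 0.0238% of it, with the highest marker at 1.04% and 1.05%.

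Il1a and Il1b, neighbours on chromosome 2, encode the ligands of Il1r1 and were also highest in microglia, but their libraries spread more widely. Il1a had 416 and 124 FPKM in microglia, against 39.8 and 8.92 in precursors, and between 0.1 and 0.616 in the libraries of the other 5 types. The lower microglia library was still above the higher precursor library, and precursors stood apart from the rest by a log2 difference of 3.66 over myelinating oligodendrocytes (limma adjusted p = 3.24e-05). The SE and p-value rest on a spread pooled over all 8 groups. For Il1a it takes in types near the floor that hardly vary, so it can understate the spread in microglia and precursors. Microglia exceeded precursors by 3.50 ± 0.54 (SE, limma adjusted p = 1.30e-04). That difference was 2.48 without precursor replicate 2, 4.52 without precursor replicate 1, 2.63 without microglia replicate 1 and 4.37 without microglia replicate 2, and it kept its call each time.

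Il1b had 45.3 and 18.4 FPKM in microglia, against 1.20 and 0.194 in precursors, 0.297 and 0.441 in neurons, 0.102 and 0.282 in endothelial cells, and the floor of 0.1 in the 6 libraries of astrocytes, newly formed and myelinating oligodendrocytes. Microglia exceeded precursors, the next type, by a log2 difference of 4.21 ± 0.33 (SE, limma adjusted p = 8.99e-08), and by 3.58 without microglia replicate 1 and 4.84 without microglia replicate 2. The limit on the SE given for Il1a holds for Il1b too. Below microglia no neighbouring purified types differed. The same microglia library was the higher one for Il1a, Il1b and the immediate-early sum, and the lower one for Tnf.

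In the precursors, several messages of the microglial genes were higher in the same 1 of the 2 libraries as the microglia markers. For Tnf, Il1a, Il6ra and Tnfrsf1b precursors lay above astrocytes and the later oligodendrocyte stages, and for Il1b they did not pass the test against astrocytes (log2 difference 0.56, limma adjusted p = 0.171). Relative to the microglia mean, precursor replicates 1 and 2 held 14.7% and 3.31% for Il1a, 11.9% and 3.95% for Il6ra, 3.77% and 0.608% for Il1b, 2.75% and 0.889% for Tnfrsf1b, and 1.29% and 0.309% for Tnf. The 10 microglia markers in the same libraries ranged from 2.997% to 31.1% and from 1.62% to 9.75%. Replicate 1 was the higher for each of these genes and for the marker median. Tnfrsf1a did not follow that order, with 21.8% and 27.0%. Replicate 1 also had the higher medians for astrocyte markers (8.50% against 5.24% of the astrocyte level) and endothelial markers (0.403% against 0.119% of the endothelial level). The same held for the precursors' own markers (109.7% against 90.3%), while neuron markers were higher in replicate 2 (9.66% against 7.61% of the neuron level). The microglia markers had medians of 6.02% and 3.08%, so the gap between the libraries differed in size from list to list. The cause of the order was not tested.

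Il18, an interleukin-1 family ligand that needs caspase-1 and is known chiefly from macrophages, was highest in astrocytes here, and present at a lower level in microglia. It had 137 and 93.6 FPKM in astrocytes, 39.3 and 31.5 in precursors, 25.8 and 24.3 in newly formed oligodendrocytes, 23.7 and 25.8 in myelinating oligodendrocytes, 15.2 and 12.8 in microglia, 7.57 and 11.2 in neurons, and 0.667 and 0.600 in endothelial cells. Both astrocyte libraries lay above those of the other types, by a log2 difference of 1.66 ± 0.20 over precursors (SE, limma adjusted p = 3.66e-05). Endothelial cells were at the other end, lower than the mean of the other 6 types by a log2 difference of -4.07 (limma adjusted p = 1.23e-11) and below neurons by 2.64 (limma adjusted p = 2.63e-08). Among the oligodendrocyte stages, precursors exceeded myelinating oligodendrocytes by 0.49 (limma adjusted p = 0.0413). Newly formed and myelinating oligodendrocytes differed by 0.02 and did not pass the test, but under median-of-ratios scaling newly formed were lower, by -0.69 (adjusted p = 0.0121). Precursors minus newly formed oligodendrocytes, a log2 difference of 0.47 (limma adjusted p = 0.0697), passed without precursor replicate 2 (0.63, adjusted p = 0.0473) or either neuron library (0.47, adjusted p = 0.0479). Unlike the microglial genes, Il18 was spread out: astrocytes held 51.3% of the sum of the 7 type means and precursors 15.8%.

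Il6 was near the limit of what the files resolve. It had 0.580 and 0.823 FPKM in endothelial cells and 1.37, 0.517 and 0.372 FPKM in whole cortex, with all other libraries at or under 0.262 FPKM. The floor of 0.1 was reached in the 6 libraries of the oligodendrocyte lineage and in 1 of the microglia libraries. With no filter on low values, endothelial cells exceeded astrocytes by a log2 difference of 0.49 ± 0.19 (SE), which did not pass the test (limma adjusted p = 0.11, over 17148 genes).

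Il1rn, the receptor antagonist, was low and detected in microglia and whole cortex alone. It had 3.55 and 2.02 FPKM in microglia and 0.705, 0.164 and 0.153 FPKM in whole cortex, and stood at the floor of 0.1 in the 12 libraries of the other 6 types. The log2 difference from the next type was 1.75 ± 0.18 (SE, limma adjusted p = 1.58e-06). Because the other types are at the floor and the gene passed the filter through the microglia libraries, that difference depends on the pseudocount (3.80 with 0.1) and is no bound. The SE also pools in these types, whose values at the floor do not vary.

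The TNF receptors differed in breadth. Tnfrsf1a, the receptor with the death domain, had 99.7 and 118 FPKM in microglia, 23.7 and 29.3 in precursors, 23.0 and 25.6 in endothelial cells, 11.8 and 11.2 in astrocytes, 4.66 and 7.20 in newly formed oligodendrocytes, 1.79 and 1.42 in neurons, and 0.316 and 0.899 in myelinating oligodendrocytes. Microglia did not overlap precursors (log2 difference 2.00 ± 0.21, SE, limma adjusted p = 1.87e-06), while precursors and endothelial cells overlapped (0.12, limma adjusted p = 0.648). Against the mean of the other types, Tnfrsf1a was also higher in precursors by 1.46 and in endothelial cells by 1.33. The precursor libraries, where fibroblast markers summed to 717 and 728 FPKM, also held Tnfrsf1a, and the part of such cells in its level was not tested. It was lower in neurons, by a log2 difference of -2.50, and in myelinating oligodendrocytes, by -3.34. Neurons exceeded myelinating oligodendrocytes by 0.72 (limma adjusted p = 0.00668), a call that was lost without myelinating oligodendrocyte replicate 1 (0.45, adjusted p = 0.104) and under median-of-ratios scaling (0.37, adjusted p = 0.14).

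Tnfrsf1b, the receptor without a death domain, had 81.3 and 96.7 FPKM in microglia, 5.61 and 5.31 in endothelial cells, 2.45 and 0.791 in precursors, and 0.1 to 0.153 in the 8 libraries of the other 4 types. Microglia exceeded endothelial cells by a log2 difference of 3.80 ± 0.22 (SE, limma adjusted p = 2.93e-09), and endothelial cells exceeded precursors by 1.38 (limma adjusted p = 6.58e-05). Astrocytes, neurons, newly formed and myelinating oligodendrocytes could not be separated. Microglia thus held 60.7% of the summed type means of Tnfrsf1a and 92.2% of those of Tnfrsf1b.

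The signalling receptor for interleukin-1 was found in another cell type than its ligands. Il1r1 had 11.8 and 12.8 FPKM in endothelial cells, against 0.753 and 0.450 in astrocytes, 0.205 and 0.569 in neurons, 0.276 and 0.315 in precursors, 0.165 and 0.150 in microglia, and the floor of 0.1 in the 4 libraries of newly formed and myelinating oligodendrocytes. Endothelial cells did not overlap any other group and exceeded astrocytes by a log2 difference of 3.06 ± 0.13 (SE, limma adjusted p = 8.14e-11). Among the types below, no neighbouring purified types differed. Mural cell markers, genes of the pericytes and smooth muscle around vessels, summed to 229 to 268 FPKM in the same endothelial libraries. They summed to 118 to 138 in precursors and 72.0 to 75.4 in astrocytes. Among these markers is Cspg4, which is also a precursor marker and was called highest in precursors. The part of mural cells in Il1r1 was not tested.

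Il6ra, the ligand-binding chain for interleukin-6, had 42.3 and 40.7 FPKM in microglia, 4.94 and 1.64 in precursors, 1.19 and 0.953 in endothelial cells, and 0.182 to 0.372 in the other 8 libraries of purified types. Microglia exceeded precursors by a log2 difference of 3.42 ± 0.26 (SE, limma adjusted p = 7.24e-08), by 4.01 without precursor replicate 1 and by 2.84 without precursor replicate 2. Endothelial cells exceeded newly formed oligodendrocytes by 0.70 (limma adjusted p = 0.0341), and this call was lost when any of the 4 libraries was left out (adjusted p from 0.0542 to 0.149), with no filter (adjusted p = 0.0555) and at a common sum (0.61, adjusted p = 0.0736). Over the 9 tested genes and all 8 groups, 26 of 63 neighbouring pairs in each gene's own order differed, where 24.6% of such pairs did over all tested genes.

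**Figure D2:**
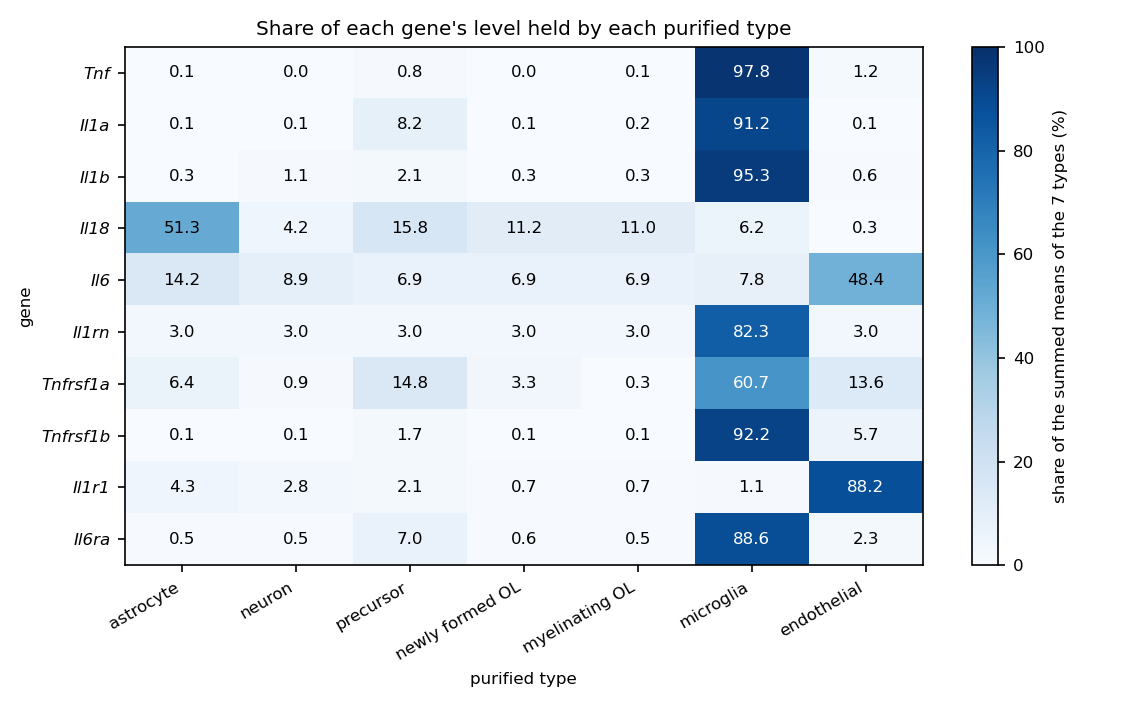
Percent of the sum of the 7 purified type means held by each type, for each of the 10 genes (rows), on a colour scale of 0 to 100%. Tnf, Il1b, Tnfrsf1b and Il1a have over 90% in microglia, Il1r1 has 88.2% in endothelial cells, and Il18 and Tnfrsf1a are the most spread out of the tested genes.

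The concentration in a single type was high for most of the genes. The highest share ran from 51.3% for Il18 to 97.8% for Tnf, with 95.3% for Il1b, 91.2% for Il1a and 88.6% for Il6ra, and the median over the 9 tested genes, Il1rn with its entry through microglia among them, was 88.6%, against 32.4% over all tested genes. Floor values count as 0.1 FPKM in these shares, which lowers the share of a weak gene such as Il1rn (82.3%). The distance between profiles, the percent of the summed type means that would have to move to make 2 profiles equal, was 3.12% between Tnf and Il1b and 3.80% between Il1a and Il6ra. It was 96.2% between Il1a and Il1r1 and 94.2% between Il1b and Il1r1, so ligand and receptor messages of interleukin-1 barely shared a cell type. For TNF the ligand was 5.62% from Tnfrsf1b and 37.1% from Tnfrsf1a.

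Partner chains, named after their values were seen, were placed differently again. Il1rap, the accessory chain that Il1r1 needs, averaged 58.3 ± 22.8 FPKM in newly formed oligodendrocytes, 44.3 ± 6.46 in precursors, 33.2 ± 3.90 in myelinating oligodendrocytes, 6.03 ± 0.917 in astrocytes, 4.87 ± 0.441 in endothelial cells, 1.88 ± 0.687 in neurons and 0.351 ± 0.201 in microglia (SD, n = 2 each). The oligodendrocyte lineage thus held most of the accessory chain, while Il1r1 itself was at 0.315 FPKM or less there. Il1r2, the decoy receptor that binds interleukin-1 without signalling, was highest in microglia at 3.73 ± 0.211 FPKM. Every library of the other groups held at most 0.479 FPKM. Like Il1rn, Il1r2 thus entered the test only through the microglia libraries, and its call adds nothing. Of the interleukin-18 receptor, Il18r1 was at the floor in each of the 17 libraries and Il18rap reached at most 0.213 FPKM, in an endothelial library. Il18bp, which neutralises interleukin-18, averaged 4.10 ± 0.117 FPKM in astrocytes and 2.78 ± 0.144 in neurons, a difference that did not pass the test for the highest type (limma adjusted p = 0.258).

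The shared chains were broader. Il6st, the signalling chain for interleukin-6, averaged 27.0 ± 0.260 FPKM in endothelial cells, 25.5 ± 0.856 in astrocytes, 21.4 ± 3.47 in microglia and 4.90 ± 1.32 in myelinating oligodendrocytes. Adam17, which sheds TNF and both its receptors, averaged 17.6 to 19.5 FPKM in astrocytes, precursors, newly formed oligodendrocytes, microglia and endothelial cells, and 2.92 ± 0.989 in neurons. Casp1, the protease of the inflammasome, was highest in microglia at 4.23 ± 2.24 FPKM and averaged 1.13 ± 0.102 in astrocytes, the type with most Il18.

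Whole cortex held a larger share of the microglial level of Il1a and Il1b than of the microglia markers. Compared with the mean of the 7 purified types, 3 of the 9 tested genes were higher in whole cortex, where 17.3% of tested genes were, and 0 were lower (0.785%). Il1a had 58.5, 69.0 and 46.8 FPKM in whole cortex, above each purified type but microglia, and a log2 difference of 3.85 ± 0.34 from the mean of the types (SE, limma adjusted p = 2.93e-07). Il1b had 11.7, 12.3 and 8.29 FPKM in whole cortex, a log2 difference of 2.58 ± 0.21 (limma adjusted p = 1.19e-07). Tnf had 9.34, 18.5 and 24.1 FPKM in whole cortex, a log2 difference of 1.90 ± 0.27 (limma adjusted p = 2.63e-05), and its highest library was more than 2 times its lowest. With a pseudocount of 0.1 the count of higher genes was 5, with Il1r1 and Il6ra added.

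Set against their highest type, the genes fell into levels. The 3 whole cortex libraries held 17.4% to 25.6% of the microglia mean for Il1a, 26.1% to 38.5% for Il1b and 5.49% to 25.3% for Il1rn. They held 10.01% to 10.4% for Tnfrsf1a, 4.51% to 6.38% for Il6ra, 1.76% to 4.54% for Tnf and 1.38% to 1.66% for Tnfrsf1b. The 10 microglia markers had medians of 1.36% to 1.73% in the same libraries, and the highest single marker was at 6.13% to 9.38%. Il1a, Il1b and Tnfrsf1a were thus above each of the 10 markers in each library, while Tnf and Tnfrsf1b lay inside the range of the markers. In purified libraries other than microglia the highest level was 39.8 FPKM for Il1a, 1.20 FPKM for Il1b and 29.3 FPKM for Tnfrsf1a. The cause of the whole cortex levels was not tested.

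Il1r1 in whole cortex was 7.36% to 10.1% of the endothelial mean, beside endothelial markers with medians of 5.98% to 6.97% and a highest marker of 8.10% to 9.08%. Il18 was 17.6% to 20.3% of the astrocyte mean, beside astrocyte markers with medians of 24.7% to 26.9%. Between groups, Il1a in microglia exceeded whole cortex by a log2 difference of 1.96 (limma adjusted p = 0.0021), but not without microglia replicate 1 (1.09, adjusted p = 0.0681). Il1a in whole cortex exceeded precursors by 1.54 (limma adjusted p = 0.0225), a call lost without precursor replicate 2 (0.52, adjusted p = 0.411), whole cortex replicate 1 (1.53, adjusted p = 0.0537) or whole cortex replicate 2 (1.41, adjusted p = 0.072). Tnf in whole cortex exceeded endothelial cells by 1.19 (limma adjusted p = 0.0128), a call lost without whole cortex replicate 3 (0.91, adjusted p = 0.0596) or endothelial replicate 1 (1.10, adjusted p = 0.0733). Il1b in microglia exceeded whole cortex by 1.37 (limma adjusted p = 0.000788), and by 0.69 (adjusted p = 0.0523) when libraries were scaled to a common sum.

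**Figure D3:**
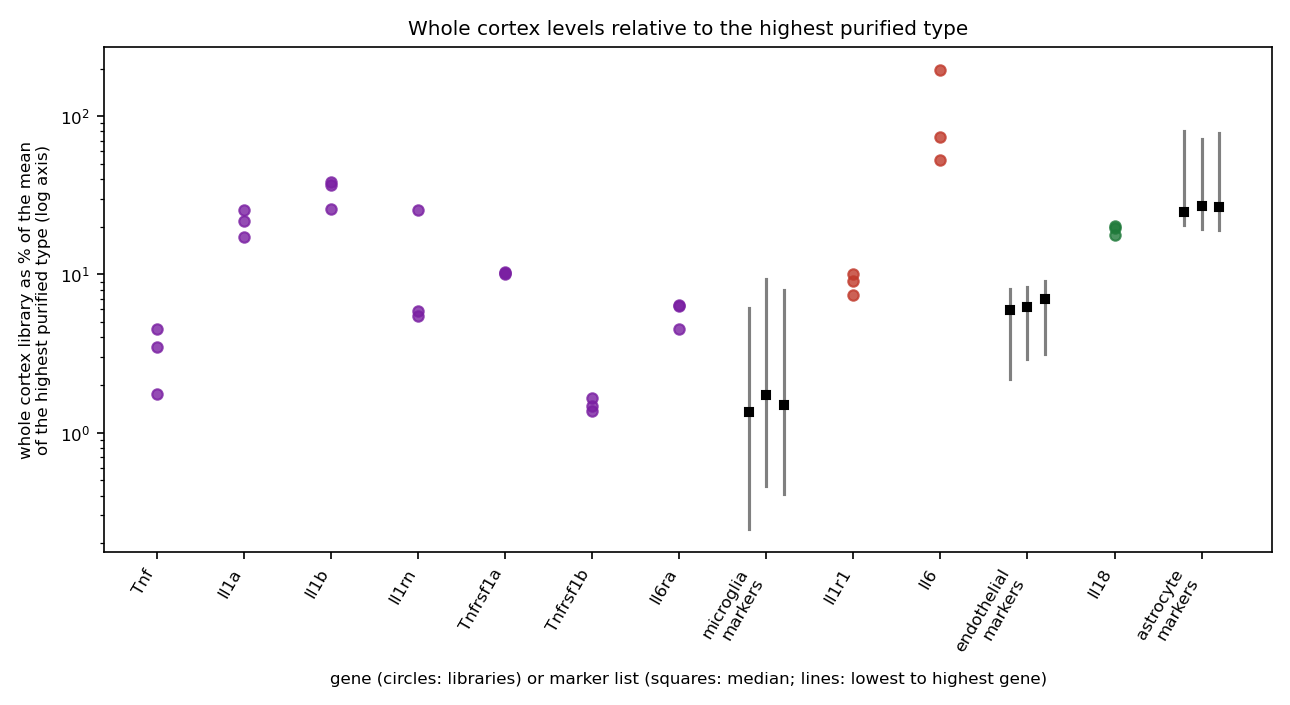
Each whole cortex library as a percent (log axis) of the mean of the highest purified type: circles are the 10 genes, coloured by that type (purple microglia, red endothelial, green astrocyte), squares are the median of the type's markers in a library and lines their lowest to highest gene. Il1a (17.4% to 25.6%) and Il1b (26.1% to 38.5%) lie above the lines of the microglia markers, and Tnfrsf1b (1.38% to 1.66%) beside their medians.

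The rest of the pathway was described by 10 lists of related genes, 137 in the files, of which 104 were tested; the 10 genes above are not in these lists, which were written for this description. Against the mean of the other types, microglia were higher for 58 of the 104 and lower for 10, where 15.2% and 28.1% of all tested genes were. They were called highest for 31, or 29.8%, beside 7.03% of all genes. The higher and highest counts include Il1r2, which entered the test only through the microglia libraries, and list genes were not screened for this. Endothelial cells were higher for 36 and lower for 8 (18.5% and 18% of all genes) and highest for 14, or 13.5%. Neurons were lower for 31 (10.3% of all genes) and myelinating oligodendrocytes for 45 (31%). The percents over all genes for microglia and endothelial cells also stand beside the counts of single lists below.

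The microglial side held the machinery for making and restraining the cytokines. Of 8 tested inflammasome genes all 8 were higher in microglia and 6 were called highest there (Casp1, Nlrp3, Pycard, Aim2, Nlrp1a, Gsdmd), with a median log2 difference of 2.70 beside -0.44 over all tested genes. Nlrp3, the sensor, averaged 65.0 ± 6.49 FPKM in microglia against 0.584 over the other types, and Gsdmd, the pore that lets interleukin-1 out, 66.3 ± 8.88 against 2.68. Of 13 NF-kappaB factors and inhibitors, 10 were higher in microglia, 1 was lower and 7 were highest, with a median of 3.19. These genes were not microglial alone: endothelial cells were higher for 7 of the 13, lower for 1 and highest for 0. The endothelial median was 1.17, beside -0.039 over all tested genes. The inhibitor Nfkbia averaged 713 ± 7.18 FPKM in microglia against 87.5 over the other types.

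NF-kappaB target genes were split between microglia and endothelium. In microglia 7 of 11 were higher and Icam1, Ccl2 and Csf1 were highest, whereas in endothelial cells 6 of 11 were higher and Sele, Ptgs2, Nos2 and Cxcl1 were highest, and Vcam1 was highest in astrocytes. Icam1, an adhesion molecule for leukocytes, averaged 522 ± 57.3 FPKM in microglia against 30.2 over the other types, and the chemokine gene Ccl2 averaged 242 ± 205.5 against 2.50, with a wide spread between its libraries. The list of 10 immediate-early genes moved with these groups: 10 of 10 were higher in microglia, 10 in astrocytes and 8 in endothelial cells, and its part in the counts was not tested.

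Among TNF receptor complex genes, 8 of 14 were higher in microglia and 2 were lower, with Tnfaip3, a brake on NF-kappaB, at 134 ± 39.6 FPKM against 11.8 over the other types. Endothelial cells were higher for 6 of the 14 and highest for Ripk1 (17.5 ± 0.0726 FPKM against 3.11) and Mlkl (3.28 ± 0.323 against 0.161), both parts of the necroptosis pathway, while their partner Ripk3 was highest in microglia (6.05 ± 0.00421 against 0.369). Of 7 other TNF family ligands, 4 were higher in microglia, and Tnfsf10 (TRAIL) was highest in endothelial cells at 8.50 ± 0.552 FPKM with the other types at the floor. Of 18 other TNF family receptors, 9 were higher in microglia and 9 in endothelial cells. Cd40, the receptor for the T cell ligand CD40L, averaged 64.9 ± 7.01 FPKM in endothelial cells against 0.331 over the other types, and Tnfrsf19 averaged 200.1 ± 28.4 in astrocytes against 23.7.

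In the interleukin-6 family list 8 of 15 genes were higher in microglia and 3 were lower. The ligand gene Osm (oncostatin M) averaged 208 ± 13.4 FPKM in microglia against 0.713 over the other types, while its receptor chain Osmr was highest in endothelial cells at 17.8 ± 0.629 against 0.810. Socs3, the feedback inhibitor of STAT3 signalling, averaged 474 ± 29.8 FPKM in microglia against 35.1. Of the 11 adaptors below the interleukin-1 receptor, 2 were higher in microglia (Myd88, at 45.9 ± 4.60 FPKM against 3.35, and Irak2) and 2 were lower (Map3k7, Tab3). Over all tested genes 15.2% were higher in microglia and 28.1% lower, so the higher count was near the share of all genes. Of 5 other interleukin-1 family receptors, 2 were higher in microglia and 1, Il1rap, was lower, and Sigirr, an inhibitory member, was highest in endothelial cells at 29.4 ± 1.53 FPKM against 0.254. Both tested genes of the remaining interleukin-1 ligand list were higher in astrocytes, namely Il33 (8.47 ± 4.45 FPKM against 0.931) and Il18bp.

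**Figure D4:**
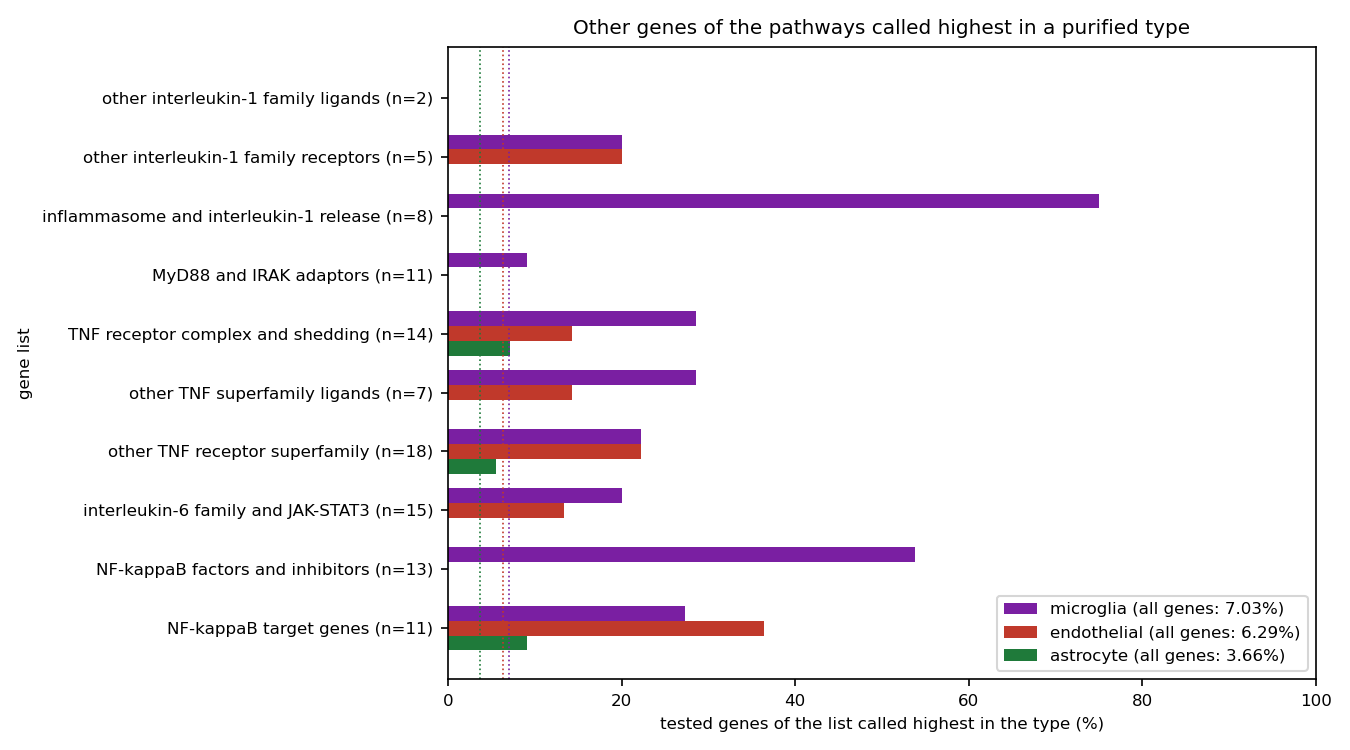
Percent of the tested genes of each list (n in brackets) that were called highest in microglia (purple), endothelial cells (red) or astrocytes (green), with dotted lines at 7.03%, 6.29% and 3.66%, the percent over all tested genes. In microglia 6 of 8 inflammasome genes and 7 of 13 NF-kappaB factors (53.8%) were called highest, and in endothelial cells 4 of 11 NF-kappaB targets (36.4%).

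Of the 10 genes, 8 have a single RefSeq isoform in the files, and Il1rn and Il1r1 have more. Il1rn was carried by different isoforms in the 2 microglia libraries. Replicate 1 had 2.96 FPKM of NM_001039701, or 81.2% of the summed isoforms, and 0.586 FPKM of NM_001159562, with NM_031167 at the floor. Replicate 2 had 1.60 FPKM of NM_031167, or 75.4%, and 0.421 FPKM of NM_001039701. The libraries did not share a leading isoform, so no isoform of Il1rn could be named for microglia at these levels.

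Il1r1 in endothelial cells used both of its isoforms, NM_001123382 at 6.18 and 7.79 FPKM and NM_008362 at 5.62 and 5.05 FPKM, so the first made 52.4% and 60.7% of the sum. In whole cortex NM_001123382 made 79.3%, 90.1% and 91.8% of a sum near 1 FPKM, above both endothelial libraries, with NM_008362 at the floor in 2 of the 3 libraries. The few microglia values above the floor were of NM_008362, at 0.165 and 0.149 FPKM. No test was made on these shares.

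**Figure D5:**
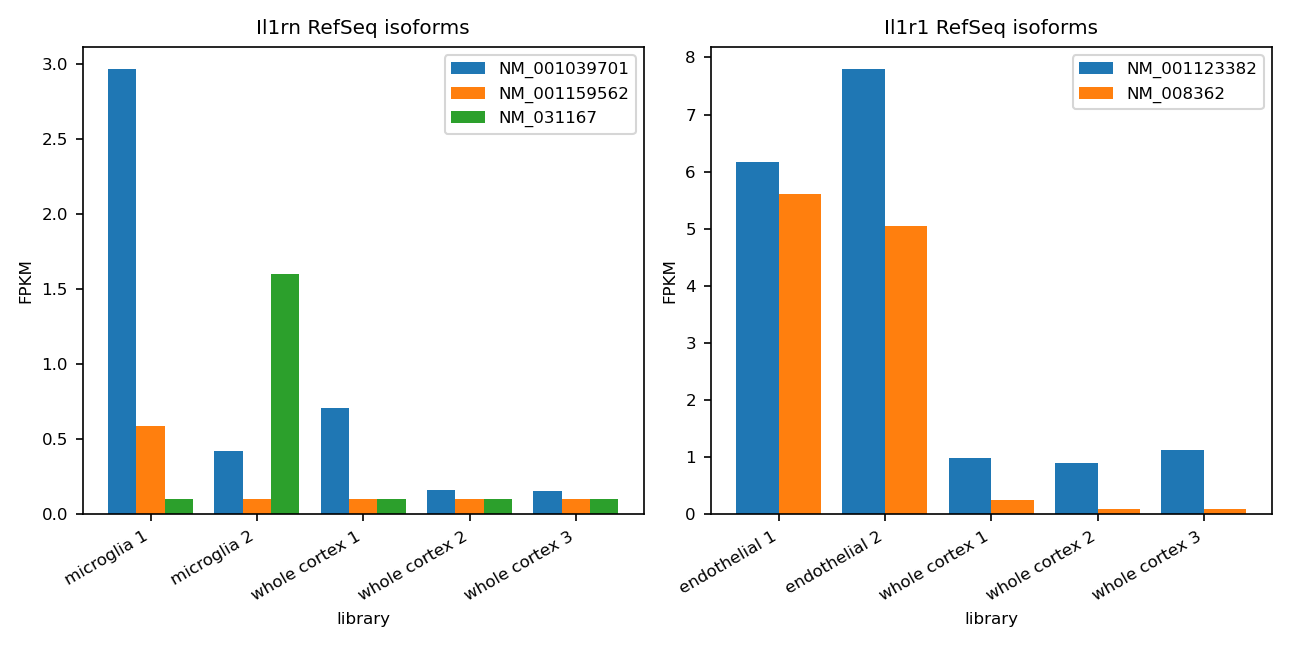
FPKM of each RefSeq isoform of Il1rn (left, microglia and whole cortex libraries) and Il1r1 (right, endothelial and whole cortex libraries), with a bar per isoform and library on axes that start at 0. The leading isoform of Il1rn differs between the microglia libraries (2.96 FPKM of NM_001039701 against 1.60 FPKM of NM_031167), while both isoforms of Il1r1 are present at 5.05 to 7.79 FPKM in endothelial cells.

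For each tested gene, the genes with the nearest profile over the 7 types were taken from 10544 genes that reach 5 FPKM in some type. Nearest to Tnf was Slfn2 at a distance of 0.672%, followed by Ncf1 and Gdf15. Il1b was nearest to Gpr157 (0.856%), Snx20 and Tifab, and Il1a to Mpeg1 (1.16%), Tlr7 and Cd180. Tnfrsf1b was nearest to Batf (0.766%) and Neurl3, Il6ra to Ngp (1.40%), Btk and Lyve1, and Il1rn to Lat2 (1.73%), Grn and Daglb. Ngp is among the neutrophil markers and Lyve1 among those of perivascular macrophages and monocytes, and both were called highest in microglia. The part of such cells in Il6ra was not tested. The number of genes within 5% varied among the microglial genes, from 178 for Il1b, 129 for Il1a and 114 each for Tnf and Il6ra to 39 for Tnfrsf1b and 4 for Il1rn, and was 54 for Il1r1. Il1r1 was nearest to Abcc9 (1.37%), a channel subunit of mural cells, then Ecm2 and Slco2a1. The profiles of Tnfrsf1a and Il18 were less usual, with 0 genes within 5%: Tmem86a was 6.03% from Tnfrsf1a and Ptn 8.63% from Il18.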

How the data were processed

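FPKM values per gene and per RefSeq isoform were deposited by the authors for each library; per the submitters' processing notes their software included Cufflinks 1.3.0, Bowtie 0.12.7, CASAVA and TopHat 1.3.3, on build mm9. The files list nothing under 0.1 FPKM, and hold no counts. Read depth is therefore unknown, and no interval or detection limit based on counts is given. Library sums were 205621 to 389838 FPKM, and replicates correlated across genes with Pearson's r of 0.977 to 0.998.

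Genes with 1 FPKM or more in 2 or more libraries (14011 of 22462) were fitted as log2(FPKM + 1) with limma 3.58.1 (R 4.3.3), 1 mean per group over all 17 libraries, with a trended prior variance. Differences are on that scale, which understates changes of low genes. The spread of a gene is pooled over all groups, so groups near the floor can make it too small for groups that vary more. The p-values were adjusted by Benjamini-Hochberg over all tested genes, one-sided for the highest type and two-sided otherwise, and the fit was tested on simulated data. Tables and plots used Python 3.11.15, numpy 2.4.6, pandas 2.3.3 and matplotlib 3.10.9. The 10 genes are described in full. Of each pathway list, up to 4 tested genes with the largest difference in the type with most calls could be named; other list genes named, such as those called highest, and the partner chains were chosen after their values were seen. Up to 3 of the nearest profiles are named for each gene, and 1 is not reported here. The 10 genes and the lists were chosen with earlier results of these data known. Alternatives were another pseudocount, other filters, other scalings, a constant prior variance, a replicate block and leaving out each library.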

Additional observations from a re-analysis of the deposited data

How the results depend on the processing

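Over 25 alternative settings, 85 results gave 1984 values, of which 1927 were taken as the same. For a test this meant the same direction and side of the threshold, for a count a change of at most 1.5 times, and for an isoform share an equal value. Of the rest, 24 lost a call, 10 gained a call and 16 changed sign. The other 7 were counts that moved by over 1.5 times, or to or from 0. The call of the highest type held for the 9 tested genes under each alternative that gave a value; Il1rn was not tested at a filter of 5 FPKM or without either microglia library, and its isoform shares had no value at an isoform sum of 5 FPKM. With a pseudocount of 0.1, 1 gene was lower in microglia than the mean of the other types (0 in the reported fit), 5 were higher in whole cortex (3 in the reported fit), and Tnfrsf1b in whole cortex minus the mean of the types was 0.44. Median-of-ratios scaling, which moved the median microglia difference of all genes to -0.17 (-0.44 as reported, -0.72 at a common sum), made 1 gene higher in myelinating oligodendrocytes. Among all tested genes it called 354 highest in myelinating oligodendrocytes (98 as reported, 58 at a common sum, 56 without myelinating oligodendrocyte replicate 1) and 116 highest in precursors (209 as reported). It gave precursors minus endothelial cells as -0.17 for Tnfrsf1a. For Il18 it gave newly formed minus myelinating oligodendrocytes as -0.69 (limma adjusted p = 0.0121) and whole cortex minus microglia as -0.11. Whole cortex minus the mean of the types became -0.22 for Tnfrsf1a, -0.11 for Il1rn and -0.029 for Il18. At a common sum, Il18 in myelinating oligodendrocytes minus whole cortex was -0.26 and in microglia minus neurons -0.22. Leaving out single libraries gave ranges of -0.062 to 1.52 for Tnf in endothelial cells minus precursors, -0.032 to 0.26 for Tnfrsf1a in precursors minus endothelial cells, and -0.38 to 0.56 for Tnfrsf1b and -0.35 to 0.82 for Il6ra in precursors minus whole cortex. The ranges were -0.038 to 0.077 for Il18 in newly formed minus myelinating oligodendrocytes and -0.18 to 0.11 for Il1rn in whole cortex minus the mean of the types. Same-numbered libraries of 21 pairs of purified types correlated from -0.25 to 0.73 in their deviations, over 0.1 in 6. The labels do not say whether the numbers pair libraries, and these values do not settle it. A replicate block ended 1 call, Tnf in whole cortex minus endothelial cells (0.91, limma adjusted p = 0.0667). Except where a setting leaves out libraries or genes, the cause of these changes was not tested. The floor of 0.1 FPKM and the unknown depth limit Il6, Il1rn and the low end of each order.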
